A study of Drosophila melanogaster with 3 samples.

Results

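Mef2 is the fly MADS-box transcription factor of muscle, and its gene lies on chromosome arm 2R at 9913496 to 9958858 on the minus strand (FBgn0011656, Ensembl BDGP6.54, the same coordinates as dm6). It was described here by the summits of Scalloped ChIP-seq peaks in the gene and in 15 kb on either side (9898496 to 9973858). A summit is the point in a peak interval that the authors' caller placed as its centre of binding. The list filtered by irreproducible discovery rate (IDR), a measure of how alike peaks rank between replicates, held 17 summits in this region out of 10553 in all. The list from pooled replicates held 38 of 30000, and replicates 1, 2 and 3 held 39, 37 and 39 of 30000 each.

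The study mapped Scalloped (sd) by ChIP-seq in whole *Drosophila melanogaster* embryos of mixed sex collected at 4 to 20 h. All samples carried a transgene for sd with a C-terminal GFP tag, and anti-GFP antibody pulled down the fusion protein. The 3 samples are biological replicates of this single group, with 1 biosample each, so there was no second genotype, stage or treatment to compare. Whole embryos contain many tissues, and a peak therefore does not show in which cells Scalloped was bound. The labels do not say whether the embryos also carried the untagged sd gene.

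Mef2 activates the genes of muscle differentiation, among them those of the contractile apparatus, in somatic, visceral and heart muscle. In the early mesoderm its transcription is switched on by the bHLH factor Twist, and separate enhancers drive it in later muscle lineages. Scalloped is the TEA-domain factor of the fly. In wing development it acts with Vestigial, and in fly muscle both proteins have been described as partners of Mef2.

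The annotation gives Mef2 11 transcripts from 3 transcription start sites (TSSs). The distal TSS at 9958858 starts 2 transcripts, the middle TSS at 9944764, 14094 bp downstream, starts 1, and the proximal TSS at 9929615, 29243 bp downstream of the distal one, starts 8. All transcripts share a single annotated start of the coding sequence, at 9921663. All 14 IDR summits in the gene body lay upstream of this position, and none lay in coding sequence or in the 3' UTR. The coding sequence covers only 1932 bp, and the share of all IDR summits in such parts is not given here. The absence is therefore not read as particular to Mef2. Each summit carries a signal value from the authors' caller, whose scale differs between lists, so values were ranked within a list or given as a percent of the strongest summit of the region in the same list.

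Scalloped summits filled the part of Mef2 between its distal and proximal TSSs and were sparse elsewhere. Between the distal and middle TSSs (14.094 kb) there were 6 IDR summits, or 0.426 per kb. Between the middle and proximal TSSs (15.149 kb) there were 7, or 0.462 per kb. From the proximal TSS to the 3' end (16.12 kb) there was 1, or 0.0620 per kb, near the 0.0788 per kb of all arms used. The replicates gave the same picture, with 16, 13 and 14 summits in the first stretch, 16, 15 and 16 in the second and 3 in each replicate in the last. Upstream of the gene 2 IDR summits lay within 15 kb and downstream 1.

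**Figure D1:**
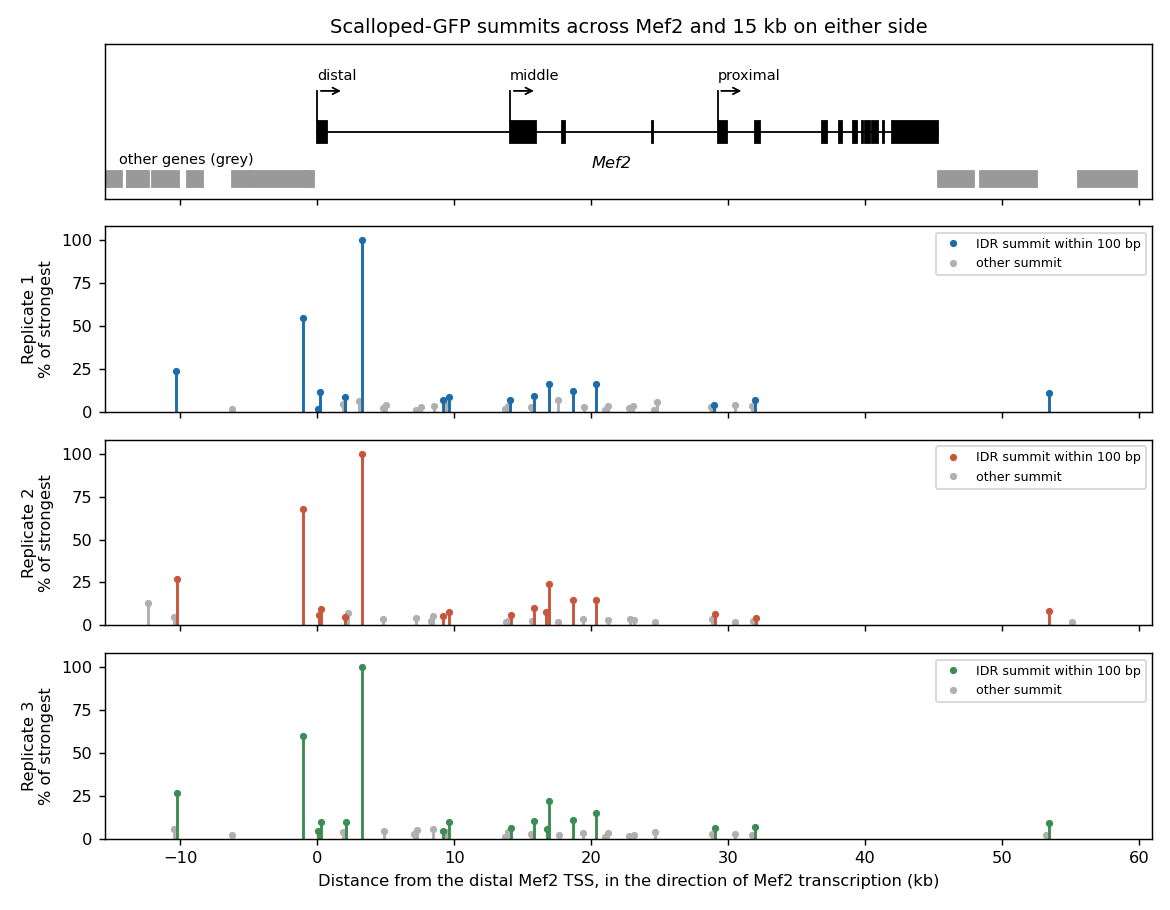
Summits of replicates 1, 2 and 3 (rows) by distance from the distal Mef2 TSS in kb, with height as percent of the strongest summit of the region in that replicate. Coloured points lie within 100 bp of an IDR summit and grey ones do not. The top row shows the exons of all Mef2 transcripts (black), its 3 TSSs (arrows) and other genes (grey); in each replicate the strongest summit stands within 9 bp of the pooled one, which is 3.285 kb downstream of the distal TSS, and from the start of the coding sequence to the 3' end of the gene there is no summit.

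The strongest summit lay at 9955573, in intronic sequence 3285 bp downstream of the distal TSS, within an interval of 720 bp (9955190 to 9955909). Its signal value was 2146 in replicate 1, 1589.5 in replicate 2 and 2798 in replicate 3, and it ranked 24, 27 and 22 among the 30000 peaks of these lists (mean 24.3 ± 2.52, SD, n = 3). It was placed at 9955573, 9955576 and 9955564, so that the replicate positions stayed within 9 bp of the pooled one. In the IDR list it ranked 23 with a signal value of 6509.8, which was 11.8 times the median of the whole list. The same value was 30.9 times the median of the pooled list, whose 30000 peaks include weaker ones. The replicate lists also hold 30000 peaks each, so their ratios are not to be compared with that of the IDR list. In the replicate lists the strongest summit was 28.5 ± 0.446 times the list median (SD, n = 3). It held 35.5% ± 0.452 of the summed signal of all Mef2 body summits. A single summit thus held about the same share of the gene's signal in each replicate.

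The next strongest summits of the region were outside Mef2, at the promoters of its upstream neighbours. The summit at 9959903 (9959656 to 9960165) lay 1.045 kb upstream of the distal Mef2 TSS. It was 171 bp from the TSS of Pdrg1 and 175 bp from a TSS of Pal1, which encodes an enzyme of neuropeptide amidation. Its signal value was 1179.6, 1077 and 1675 in replicates 1, 2 and 3, or 60.9% ± 6.46 of the strongest (SD, n = 3), and its ranks were 167, 100 and 117. The summit at 9969131 (9968908 to 9969384), 67 bp from a TSS of the translation initiation factor gene eIF3j, ranked 992, 748 and 734. These promoters are closer to other genes than to Mef2, and which gene a summit acts on was not tested. With the region cut to the Mef2 body, the strongest summit exceeded the next by 4.89 times in the IDR list, against 1.66 times with the margins.

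Within the gene, the next 3 summits formed a group between the middle and proximal TSSs. The first, at 9941907 (9941688 to 9942308), had a signal value of 348, 380.0 and 618 in replicates 1, 2 and 3, with ranks 2083, 977 and 1108. The summit at 9938503 (9938117 to 9938696) had 349.5, 236 and 426, with ranks 2071, 2418 and 2196, and that at 9940154 (9939986 to 9940422) had 268, 235 and 305, with ranks 3286, 2442 and 3835. They lay 2857, 6261 and 4610 bp downstream of the middle TSS. As a percent of the strongest summit the 3 reached 20.7 ± 4.02, 15.5 ± 0.739 and 12.7 ± 1.97 (SD, n = 3). The order of ranks was clear at the top and not below it. The replicate ranks of the strongest (22 to 27), the Pdrg1 and Pal1 summit (100 to 167) and the eIF3j summit (734 to 992) did not overlap, whereas those of the eIF3j summit and of 9941907 (977 to 2083) did, and so did those of 9941907 and 9938503 (2071 to 2418).

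**Figure D2:**
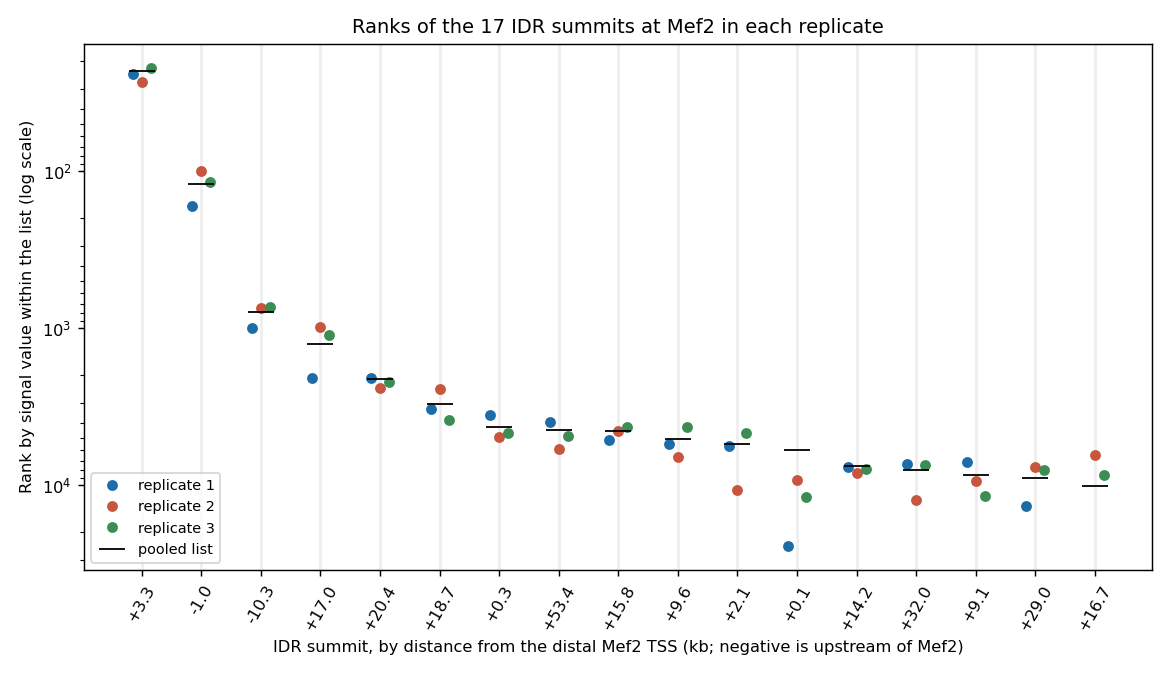
Rank by signal value (log scale, strongest at the top) of the 17 IDR summits at Mef2 in replicates 1, 2 and 3 (points) and in the pooled list (bars), ordered by pooled rank and named by distance from the distal TSS in kb. The first 3 summits have separate ranges of ranks, and the summit 0.103 kb downstream of the distal TSS spreads most, from 9267 to 24378.

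Each of the 3 Mef2 TSSs had an IDR summit within 500 bp, and all of them were weak beside the intronic peak. The share of all annotated TSSs with such a summit is not given here, so 3 of 3 is not read as particular to Mef2. By a wider window, 30.5% of all protein-coding genes had an IDR summit within 1 kb of a TSS. At the distal TSS, the summit 305 bp downstream of it (9958553; 9958388 to 9958685) ranked 3590, 4937 and 4626 in replicates 1, 2 and 3, and reached 10.3% ± 1.30 of the strongest (SD, n = 3). A second one, 103 bp downstream of it (9958755; 9958636 to 9958834), ranked 24378, 9267 and 11886, and reached 4.01% ± 1.99. At the middle TSS, the summit 77 bp downstream (9944687; 9944537 to 9944819) ranked 7657, 8433 and 7856, at 6.47% ± 0.238. At the proximal TSS, which starts most of the transcripts, the summit 201 bp upstream (9929816; 9929695 to 9929930) ranked 13511, 7673 and 8048, at 5.69% ± 1.50. None of the TSS summits ranked ahead of 3590 in any replicate. The stronger one at the distal TSS ranked ahead of the middle and proximal ones in each replicate, and the ranks of the middle and proximal ones overlapped.

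The remaining IDR summits of the region had pooled ranks of 4466 to 10198. In the first stretch, 3 lay in intronic sequence at 9956794, 9949218 and 9949710, the last 2 in a shared interval of 988 bp. A summit at 9943032 was in the 5' UTR exon that only the transcript from the middle TSS contains. The only summit in the gene body downstream of the proximal TSS lay 2736 bp beyond that TSS, at 9926879. The weakest, at 9942112 (rank 10198), shared its interval with the summit at 9941907. It ranked 6386 in replicate 2 and 8623 in replicate 3 and had no match within 100 bp in replicate 1. The single summit downstream of the gene, at 9905420, ranked 3982, 5898 and 4839 and was 874 bp upstream of the TSS of the neuropeptide gene FMRFa.

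The coding part of Mef2 had no summit in any list. Between the IDR summits at 9905420 and 9926879 lay 21459 bp with no IDR or pooled summit, which covers every Mef2 exon with coding sequence, the neighbour Etf-QO and the body of FMRFa. The gap was 21456, 21416 and 21281 bp in replicates 1, 2 and 3. Of all gaps between neighbouring IDR summits, 12.9% were at least this long, and their median was 3014 bp. In the pooled list 3.96% were at least this long, with a median of 1126 bp. Outside the region the nearest IDR summits were 51.287 kb from the 3' end and 57.378 kb from the 5' end of the gene, and widening the margins to 30 kb added none.

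Of the 17 IDR summits, 16 were matched within 100 bp by every replicate (94.1%, 95% exact Clopper-Pearson interval 71.3 to 99.9%), beside 91.4% of all IDR summits. The share is near that of the whole list. Median offsets between the matched replicate summits and the pooled ones were 14, 11 and 9 bp in replicates 1, 2 and 3. With the replicates limited to their top 10553 peaks, the share was 64.7%, beside 67.4% of all IDR summits. Across the matched summits, signal values of replicate 1 correlated with those of replicate 2 at a Spearman's rho of 0.903 (16 summits) and of replicate 3 at 0.947 (16). Between replicates 2 and 3 the rho was 0.860 (17 summits). These values describe summits of 1 region that share their libraries, and not independent samples. The IDR filter favours peaks that rank alike between replicates, so a high rho is partly built in. Not every summit kept ranks alike, as that at 9958755 had ranks from 9267 to 24378. The same rho over all IDR summits is not given here. The intervals given for shares of summits cover counting error only, since neighbouring summits are not independent.

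By position class, 9 of the 17 IDR summits were in introns over 500 bp from a TSS (52.9%, 27.8 to 77.0%), beside 45.5% of all IDR summits. A further 6 were within 500 bp of a TSS (35.3%, 14.2 to 61.7%), beside 38.2%. Both shares at Mef2 have intervals that include the share of the whole list, and no difference was detectable with 17 summits. The summit at 9926879, counted as intronic, lay close to the intron edge at 9926870. Replicate 2 placed it at 9926802, in the adjoining exon. The pooled list added 21 weaker summits with ranks of 11228 to 29309, of which 19 were in the Mef2 body. Of the 21, 15 were matched in all 3 replicates, 5 in 2 and 1 in 1. Of all pooled summits outside the IDR list, 41.7% were matched in all 3, but the sets were not equalised for rank. The 21 had a median rank of 14974, and 7 of them lay within 250 bp of an IDR summit.

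Few Mef2 summits, and not the strongest, had an exact TEA-domain core site. CATTCC, read on either strand and lying whole in the 100 bp to each side, was present at 2 of the 17 IDR summits (11.8%, 1.46 to 36.4%), beside 19.8% of all IDR summits and 8.67% of flanking windows 1000 to 1200 bp away. The difference from the whole list was not detectable with 17 summits. Both sites were close to their summit and belonged to summits of the group between the middle and proximal TSSs. At 9941907 the site spanned 9941908 to 9941913, with its centre 3.5 bp from the summit, and at 9938503 it spanned 9938490 to 9938495, with its centre 10.5 bp from it. At the strongest summit the nearest CATTCC was 7546.5 bp away, and at the Pdrg1 and Pal1 summit it was 3216.5 bp away. Of the 23 IDR peaks down to the rank of the strongest Mef2 summit, 8 had no exact site, as had 49 of the top 100. Strong peaks thus had the site more often than the whole list, where 19.8% had it.

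The stretch with the strongest summit was also poor in the site as sequence. It held 1 CATTCC in 14.094 kb, against 12 in the 15.149 kb between the middle and proximal TSSs and 13 in the 16.12 kb from the proximal TSS to the 3' end. The whole region held 39, or 0.517 per kb, beside 0.524 per kb over all arms. IDR intervals covered 8.87% of the region and held 3 of the 39 sites. The stretch from the proximal TSS to the 3' end, which had the most sites, held 1 IDR summit, 770.5 bp from the nearest site.

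**Figure D3:**
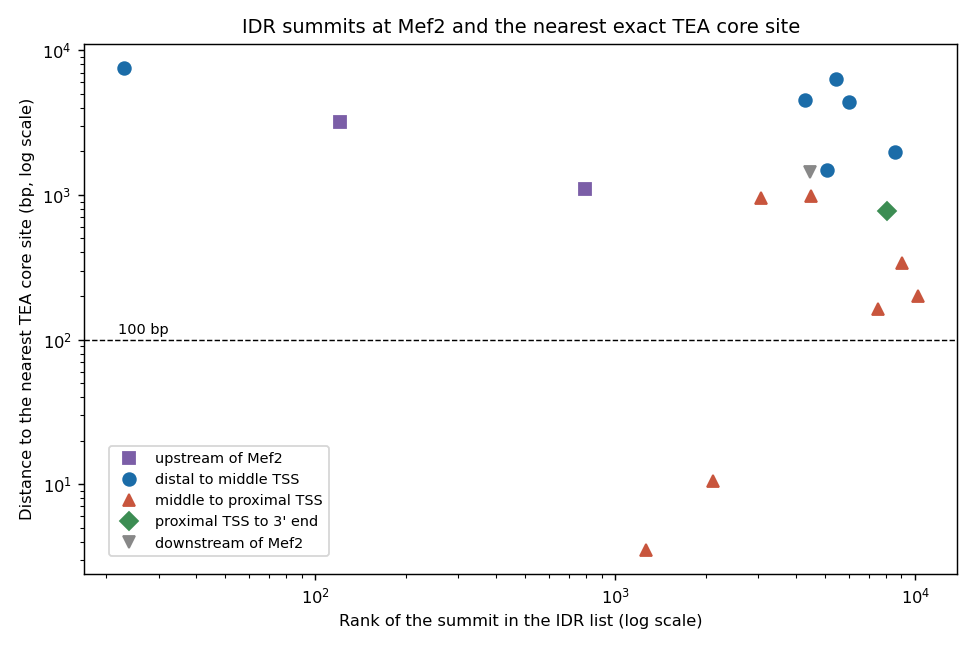
Distance from each of the 17 IDR summits at Mef2 to the centre of the nearest exact TEA core site (bp, log scale) against the rank of the summit in the IDR list (log scale), with symbols by stretch of the region. Points below the dashed line have a site within 100 bp: 2 summits between the middle and proximal TSSs do, and the strongest summit, at rank 23, is the farthest from any site.

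Other sequences were counted in the same windows as descriptions of the sequence and not of binding. The variant AATTCC, which differs from the core in 1 base, was within 100 bp of 4 of the 17 summits (23.5%), beside 23.5% of all IDR summits. It lay 71.5 bp from the strongest summit, 4.5 bp from the eIF3j summit, 0.5 bp from that at 9942112 and 5.5 bp from that at 9949710. The window of the strongest summit also held the Twist-type E-box CACATG, with its centre 20.5 bp from the summit, and directly beside it a match to the Tinman sequence TNAAGTG, 14 bp from the summit. Tinman is the homeobox factor of heart and dorsal mesoderm. CACATG was at 2 of the 17 summits (11.8%, beside 9.96% of all IDR summits), and TNAAGTG at 1 (5.88%, beside 12.4%).

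The other E-box searched, CATATG, was at 0 of the 17 summits, as were the Zelda site CAGGTA, the permuted control CTACTC and the Mef2 site. Among all IDR summits these were present at 6.68%, 4.23%, 3.63% and 7.58%. A count of 0 in 17 allows a share of up to 19.5% by the same interval, so no lack of them was detectable. GAGAG was at 7 summits (41.2%, 18.4 to 67.1%, beside 29.3% of all IDR summits), 4 times in the window of the proximal TSS summit. The AP-1 site TGANTCA was at 1, the summit at 9956794 (5.88%, beside 5.95%).

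Among protein-coding genes, Mef2 had many summits, and its strongest was near the top. In the gene with 15 kb on either side, only 110 of 13944 other genes (0.789%) had as many IDR summits or more, against a median of 3. In the gene body, 55 (0.394%) had 14 or more. Mef2 is a long gene, and the comparison with like genes is less extreme: among 793 other genes of 0.5 to 2 times its length, 63 had at least 17 IDR summits with the margins and 38 at least 14 in the body. By summits per kb of the gene with its margins Mef2 was at percentile 88.8 of all genes. By the best rank in the gene body, where 2761 genes had an IDR summit, 10 genes were ahead of Mef2, of which 4 were of like length. No test of these places was made.

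The genes with a pattern most like Mef2 were Tlk, sky, CG43739, ftz-f1 and sima. Likeness was the distance over 4 measures scaled by their SD across 264 genes of like length with at least 5 IDR summits in the body: the number of summits, the best rank, the share over 500 bp from a TSS and the share with CATTCC. Mef2 had 14 summits, a best rank of 23, 71.4% far from a TSS and 14.3% with the site. Tlk, a protein kinase gene on X, had 19 summits, a best rank of 34, 68.4% and 10.5% (distance 0.858). The genes sky, which encodes a regulator of synaptic vesicles, and CG43739 have the same coordinates in the annotation and thus the same values, with 14 summits, a best rank of 29, 71.4% and 28.6% (distance 0.966). The nuclear receptor gene ftz-f1 (distance 1.09) and the hypoxia-inducible factor gene sima (distance 1.14) had best ranks of 43 and 30. The median distance over the 264 genes was 3.68.

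**Figure D4:**
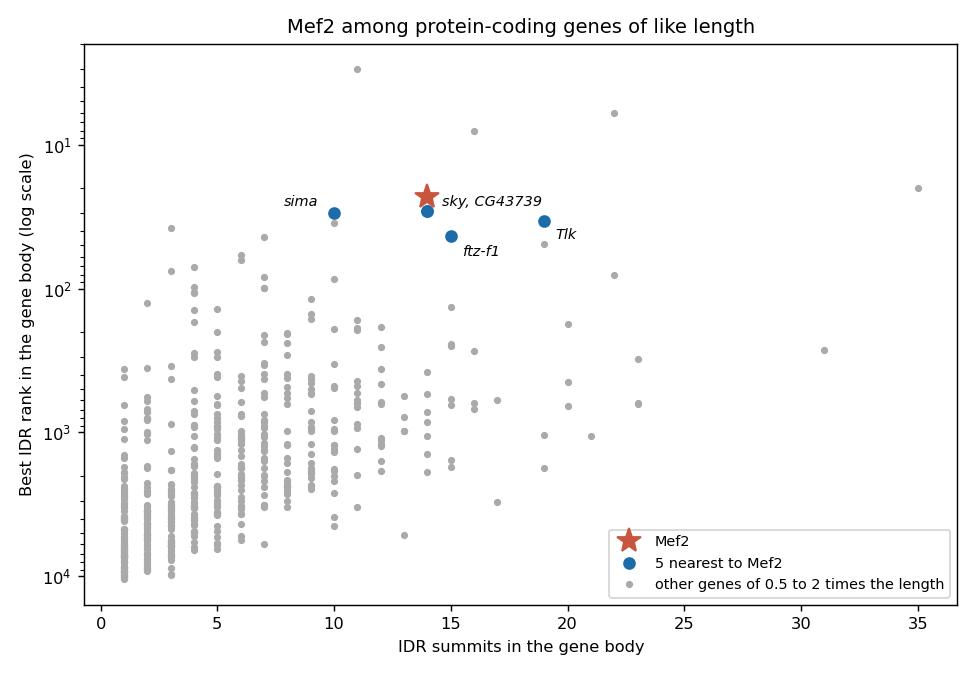
Best IDR rank in the gene body (log scale, strongest at the top) against the number of IDR summits in it, for Mef2 (star), the 5 genes nearest to it in pattern (blue) and the other protein-coding genes of 0.5 to 2 times its length with a summit (grey). Mef2, with 14 summits and a best rank of 23, is among the genes that are high on both.

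Genes that regulate Mef2 and described Mef2 targets mostly had a Scalloped summit too. None was as strong as that in Mef2, but few peaks of any kind were, since it ranked 23 among the 10553 of the IDR list. By the best rank in the gene body, 10 of 13945 protein-coding genes were ahead of Mef2. That measure is narrower than the gene with 2 kb used for the lists, as only 2761 genes had an IDR summit in the body. The number of all genes ahead within 2 kb was not counted. Of 13 listed regulators of its expression or activity, 10 had an IDR summit in the gene or within 2 kb (76.9%, 46.2 to 95.0%), beside 44% of all protein-coding genes. The median best rank of these 10 was 1658, beside 2842 for all genes with a summit. The strongest were at akirin, which encodes a nuclear cofactor of Twist (rank 132, 28 bp from its TSS), at sd itself (530) and at tin, the Tinman gene (875, 167 bp from its TSS). The embryos carry a tagged sd transgene, and its part in the signal at sd was not tested. There was none at lmd, a zinc-finger activator of Mef2, at Him, an inhibitor of its activity, or at Cf2, a zinc-finger partner. The best summits counted for the listed genes twi (Twist), da and vg (Vestigial) lay 14780, 5533 and 10858 bp from their own TSSs. Each was nearer to a TSS of another gene, and which gene they act on was not tested.

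Of 16 listed target genes of the contractile apparatus and cytoskeleton, 14 had a summit (87.5%, 61.7 to 98.4%), beside 44% of all genes. Their median best rank was 2998.5, slightly behind the 2842 of all genes with a summit. The strongest were at the tropomyosin gene Tm1 (rank 210, 234 bp from its own TSS and 89 bp from that of CG45218) and in an intron of the paramyosin gene Prm (rank 236). There was none at betaTub60D, a muscle tubulin gene, or at bt, the projectin gene. The best summits counted for the listed targets sls and Zasp52 lay 25814 and 12605 bp from their own TSSs and nearer to those of other genes. The listed genes are long, with a median of 13588 bp for the regulators and 8162 bp for the targets, beside 2166 bp for all genes, and a long gene has more room for a summit. Their part in the counts was not tested. The other MADS-box gene, bs, had 3 summits in the gene or within 2 kb, the strongest at rank 4583.

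**Figure D5:**
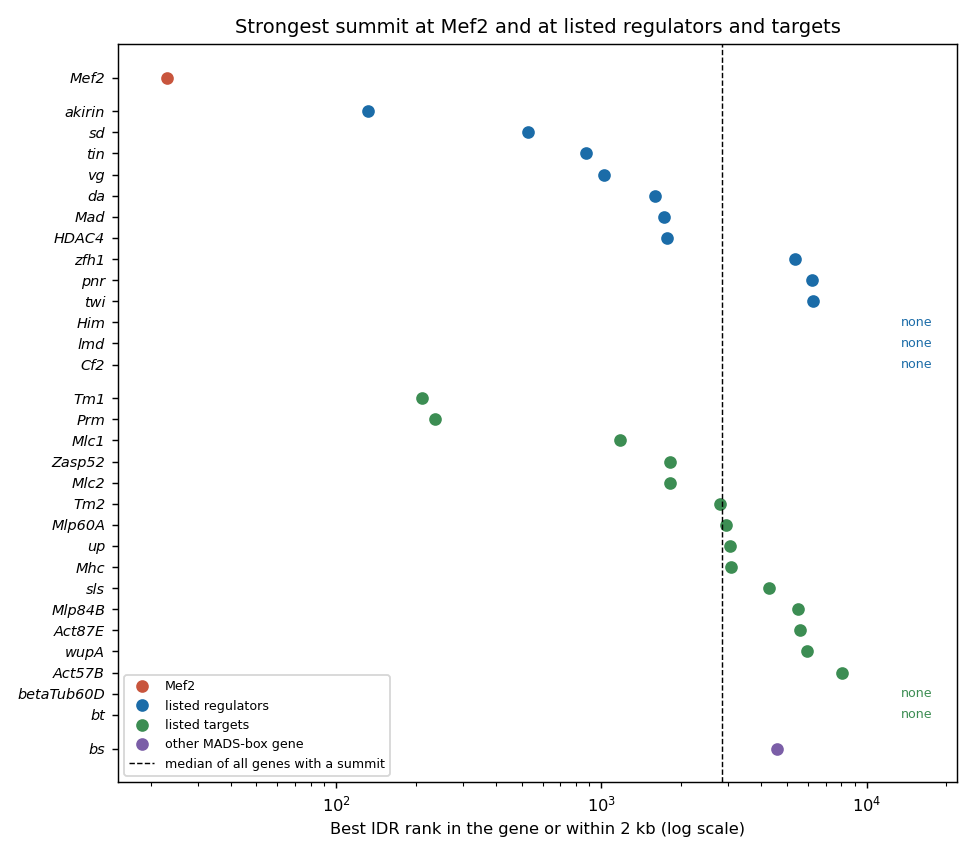
Best IDR rank (log scale) in the gene or within 2 kb for Mef2 (top), its listed regulators, its listed targets and the other MADS-box gene bs, with the median of all protein-coding genes with a summit as a dashed line at 2842. Mef2, at rank 23, lies ahead of all of them, and 3 regulators and 2 targets have no summit. By the best rank in the gene body alone, a narrower measure than the one plotted, 10 of 13945 protein-coding genes are ahead of Mef2, and 2761 have a summit there.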

How the data were processed

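The deposited files were peak lists on dm6, 1 per replicate, 1 for pooled replicates and 1 thresholded on IDR. Per the file headers, the replicate and pooled lists were derived from alignments set against a control alignment, not analysed here. Neither aligner, caller nor IDR threshold is given in the sources used here. The signal value of each peak and its −log10 q value were set by the authors' caller. The q values reached their ceiling of 4.38 in all IDR peaks and ordered nothing, and the p-value column was empty. No read totals were in the files, so depth is unknown.

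Summits (1-based) were ranked by signal value within each list on 6 arms and matched between lists within 100 bp. Genes came from Ensembl release 115, without transposable elements, and the sequence from RefSeq's dm6 assembly. Motifs were searched in windows of 201 bp. Flanks within 500 bp of an IDR summit were left out. The region summits were named one by one where they were among the 6 strongest, within 500 bp of a Mef2 TSS or weakest; from the lists, genes ranked within 1000 or without a summit were named. The region, lists and rules were chosen with earlier results of these data known. With 1 group, no test was made. Scanning and matching were tested on simulated data. All steps ran in Python 3.11.15 with pandas 2.3.3, numpy 2.4.6 and scipy 1.17.1, and plots used matplotlib 3.10.9.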

Additional observations from a re-analysis of the deposited data

How the results depend on the processing

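Of 40 alternative settings over 9 results, 28 moved the value by less than its interval, its replicate SD or 1.5 times, 12 moved it further, and none reversed a direction, as no result has one. The 17 IDR summits of the region became 10 above the median signal of the IDR list and 38 in the pooled list. The share found in all 3 replicates was 64.7% with a match within 50 bp, 100% within 200 bp and 64.7% with the top peaks of each replicate alone, beside 69.8%, 96.6% and 67.4% of all IDR summits. Leaving out 1 replicate gave 94.1% to 100% for this share, the highest without replicate 1. For the mean rank of the strongest summit it gave 23 to 25.5. The ratio of the strongest to the second summit was 1.48 in replicate 2 and 4.89 in the gene body alone. The percentile of Mef2 by number of IDR summits was 99.2 over all genes with margins. It was 99.6 for the gene body alone, 88.8 per kb, 92.1 among genes of like length and 99.0 in the pooled list. The shares in introns, with CATTCC and of the listed genes stayed within their intervals under each setting run. With 15 kb margins the listed regulators reached 92.3% and the targets 93.75%, but all genes also reached 81.0%, a smaller difference than within 2 kb, where all genes were at 44%. Within 1 kb of a TSS of the gene, regulators were at 61.5% and targets at 87.5%, beside 30.5% of all genes. With IDR peaks above the median signal alone, they were at 53.8% and 62.5%, beside 32.6%. Unknown depth limits how far a missing summit can be read. No paired analysis was possible because there is only 1 group.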

Other observations

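A few summits of the region were found in a single replicate and had no pooled summit within 100 bp, 4 in replicate 1, 4 in replicate 2 and 1 in replicate 3. The strongest of them, at 9971198 in replicate 2 (9971095 to 9971252), ranked 3174 there, 55 bp from a TSS of CG12134. It had no summit of replicates 1 or 3 within 100 bp, and the nearest pooled summit was 1858 bp away. Replicate 1 also had a second summit in the interval of the strongest peak, at 9955776, with rank 7984.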
